A study of Mus musculus with 15 samples.

Results

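The genes described here are *Cxcl12*, *Cxcl13* and *Cxcl14*, which encode secreted chemokines made in resting tissue, *Cxcl16* and *Cx3cl1*, which encode chemokines anchored in the plasma membrane, and *Ackr3*, which encodes an atypical chemokine receptor. They were chosen by name. Their probes were those whose systematic name in the scanner files is a RefSeq transcript of 1 of these 6 genes, which gave 9 of the 56605 distinct probes and 6 of the 23462 named genes of the array. RNA was measured on 15 one-color arrays in Mouse Embryonic Fibroblasts (MEFs), which the labels call 3T3 and the study describes as an established Balb/c line, so every group was grown from the same line. The 5 groups of 3 arrays were untreated MEFs (CTRL) and MEFs given TNFα at 10 ng/ml (TNFa in the labels), IL1β at 1 ng/ml, IL6 at 20 ng/ml together with its soluble receptor sIL6Rα at 25 ng/ml (IL6+IL6R), or TGFß1 at 5 ng/ml. The CTRL, TNFα and TGFß1 arrays came from independent experiments with 24 h of stimulation. The labels give 24 or 72 h of culture without saying which for any array, and the exposure time of the IL1β and IL6 groups is not stated. Arrays are called here by their group and the number that opens their label.

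Homeostatic chemokines are made without an inflammatory stimulus and place leukocytes and progenitor cells within tissues. Stromal fibroblasts are a main source of CXCL12, which acts through CXCR4. ACKR3 binds CXCL12 too, but takes it up for degradation and does not couple to G proteins in the classical way, so that it shapes how much of the ligand stays outside the cell. CX3CL1 and CXCL16 sit on a mucin-like stalk in the membrane, where they can hold leukocytes that carry CX3CR1 or CXCR6, and the proteases ADAM10 and ADAM17 release them as soluble chemokines. CXCL13 draws B cells through CXCR5 into lymphoid follicles.

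Levels are log2 intensities over the 75th percentile of the array, so that 0 is the signal of a probe at that percentile. Probes entered the test if all 3 arrays of some group carried the well-above-background mark of Feature Extraction, the scanner's software, and 29334 did. A probe is called where the limma q-value (Benjamini-Hochberg over all tested probes) was under 0.05 and the fold-change was at least 1.5 in either direction. *Cxcl12*, with 2 probes, and *Cx3cl1* and *Ackr3*, with 1 probe each, passed the filter and were well above background on all 15 arrays. *Cxcl13*, *Cxcl14* and *Cxcl16* did not pass. Since each array held the RNA of a whole culture, more RNA per cell and more expressing cells cannot be told apart. Levels are not ranked between genes. Probes of *Cxcl12* are set against each other only to choose the brighter and for how their difference within an array changed.

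The 75th percentile of the arrays was at a signal of 508 to 683, 48.3 to 54.9% of the probes were well above background and no spot outside the controls was saturated. The arrays lay on 2 slides, each of which held every group. The label checks went with the treatments. *Tnfaip3*, an NF-κB target, rose by 3.84 on the log2 scale with TNFα and by 1.34 with IL1β, *Socs3*, a STAT3 target, rose by 2.39 with IL6 and sIL6Rα, and *Smad7*, a SMAD target, rose by 2.00 with TGFß1. All 8 fibroblast markers were well above background on all 15 arrays. Of 6 leukocyte and macrophage markers, *Itgam*, *Csf1r* and *Cd14* were also above background on all arrays, while *Ptprc*, *Adgre1* and *Lyz2* were on none. *Cd14* rose by 0.78 with TNFα, and the summed log2 level of the 6 markers was 2.73 to 3.86 in CTRL and 2.94 to 3.93 with TNFα. This sum mostly followed *Itgam*, at 2.54 to 3.74 in CTRL and 2.73 to 3.77 with TNFα, and says little of the other markers. The part of these markers in the results was not tested. Among the 8 fibroblast markers, *Col1a1*, *Col1a2* and *Thy1* fell with TNFα by 0.59 to 0.79, and with TGFß1 *Pdgfra* fell by 2.00, *S100a4* fell by 0.75 and *Pdgfrb* rose by 0.66. The list did not move in 1 direction. With TNFα *S100a4* was also lower (8.18 to 8.69, against 8.91 to 9.20 in CTRL). *Lum* had a higher mean with TNFα, at 1.07 to 2.53 against -1.11 to 1.30 in CTRL, with overlap. With TGFß1 *Col1a1* was higher (6.91 to 7.20, against 6.09 to 6.77 in CTRL), and *Lum* was at -2.10 to 0.37. Of 4 endothelial markers only *Pecam1* was above background, on all 15 arrays, and the summed level was -3.85 to -3.42 in CTRL and -3.77 to -3.68 with TGFß1. Of 4 epithelial markers *Cdh1* was above background on no array and *Epcam* on 1. *Krt8* was at least 3.32-fold higher with TGFß1 than in CTRL (q = 0.0176), and *Krt18* differed by 1.77 (q = 0.176). Both passed the filter only through the TGFß1 arrays, so these q-values follow a selection on the signal tested. The summed level of the 4 markers was -4.59 to -3.03 in CTRL and -2.82 to -1.39 with TGFß1, without overlap. Their part in the TGFß1 results was not tested.

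The stretch of 250 bases upstream of the annotated start is shown for the 3 members that passed the filter. Each of them was called against CTRL with TNFα or TGFß1. No window was available for *Cxcl16*, and those of *Cxcl13* and *Cxcl14* are not shown. Sequences are from RefSeq on GRCm38.p6, on the plus strand, at chr6:117168285-117168534 for *Cxcl12*, chr8:94771930-94772179 for *Cx3cl1* and chr1:90203730-90203979 for *Ackr3*. Capitals mark TATAAA and the GC box GGGCGG on either strand (CCGCCC on the minus strand).
Cxcl12: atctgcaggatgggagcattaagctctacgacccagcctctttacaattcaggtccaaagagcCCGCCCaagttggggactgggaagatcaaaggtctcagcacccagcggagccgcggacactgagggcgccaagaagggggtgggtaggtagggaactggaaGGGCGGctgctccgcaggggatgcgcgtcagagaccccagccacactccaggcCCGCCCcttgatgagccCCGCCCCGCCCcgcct
Cx3cl1: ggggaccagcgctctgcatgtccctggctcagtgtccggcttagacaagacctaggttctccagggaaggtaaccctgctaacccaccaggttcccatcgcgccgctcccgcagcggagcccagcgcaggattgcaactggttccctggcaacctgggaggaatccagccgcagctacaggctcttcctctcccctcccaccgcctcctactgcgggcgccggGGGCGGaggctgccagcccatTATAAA
Ackr3: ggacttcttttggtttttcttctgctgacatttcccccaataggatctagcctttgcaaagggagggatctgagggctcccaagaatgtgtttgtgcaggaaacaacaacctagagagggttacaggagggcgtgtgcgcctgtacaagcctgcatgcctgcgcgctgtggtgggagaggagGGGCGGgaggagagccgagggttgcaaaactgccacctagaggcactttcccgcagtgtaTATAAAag

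The windows differed in these letters. That of *Cxcl12* held 5 GC boxes, 2 of which share a base, and no TATAAA. Those of *Cx3cl1* and *Ackr3* each held 1 GC box and 1 TATAAA, which starts 6 bases before the annotated start in *Cx3cl1* and 8 bases before it in *Ackr3*. Among 32851 RefSeq windows running from 250 bases before to 50 after a start, 35.7% held GGGCGG and 13.6% held TATAAA. No window of the 3 genes held the κB motif (4.51% of all windows), TGANTCA of AP-1 (7.81%), TTCNNNGAA of STAT factors (8.3%) or CAGAC of SMAD proteins (49.6%), searched on both strands. Motif matches are a description of letters in these windows.

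Compared with CTRL, TNFα raised *Cx3cl1* and the first *Cxcl12* probe, and TGFß1 raised *Ackr3* and both *Cxcl12* probes. The second *Cxcl12* probe differed by 0.02 with TNFα and was not called, nor was the mean of both probes. With each gene given by its brightest probe, 2 of the 3 tested genes were called higher with TNFα. Of all tested probes 4.12% were called higher with TNFα and 10.2% in either direction. With TGFß1 2 of 3 were called higher, against 7.17% of all tested probes higher and 18% called in either direction. No member was called with IL1β (0.252% of all tested probes called) or with IL6 and sIL6Rα (0.0648%), and none was called lower with any cytokine. Without adjustment, *Cxcl12* and *Ackr3* were under 0.05 in the limma fit for IL1β, and 0 of the 3 genes were for IL6 and sIL6Rα. The median log2 difference of the 3 genes from CTRL was 1.04 with TNFα, 0.60 with IL1β, 0.19 with IL6 and sIL6Rα and 1.58 with TGFß1, and that of all tested probes was 0.04, 8.7e-05, -0.00058 and 0.05. The 4 comparisons share the CTRL arrays.

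**Figure D1:**
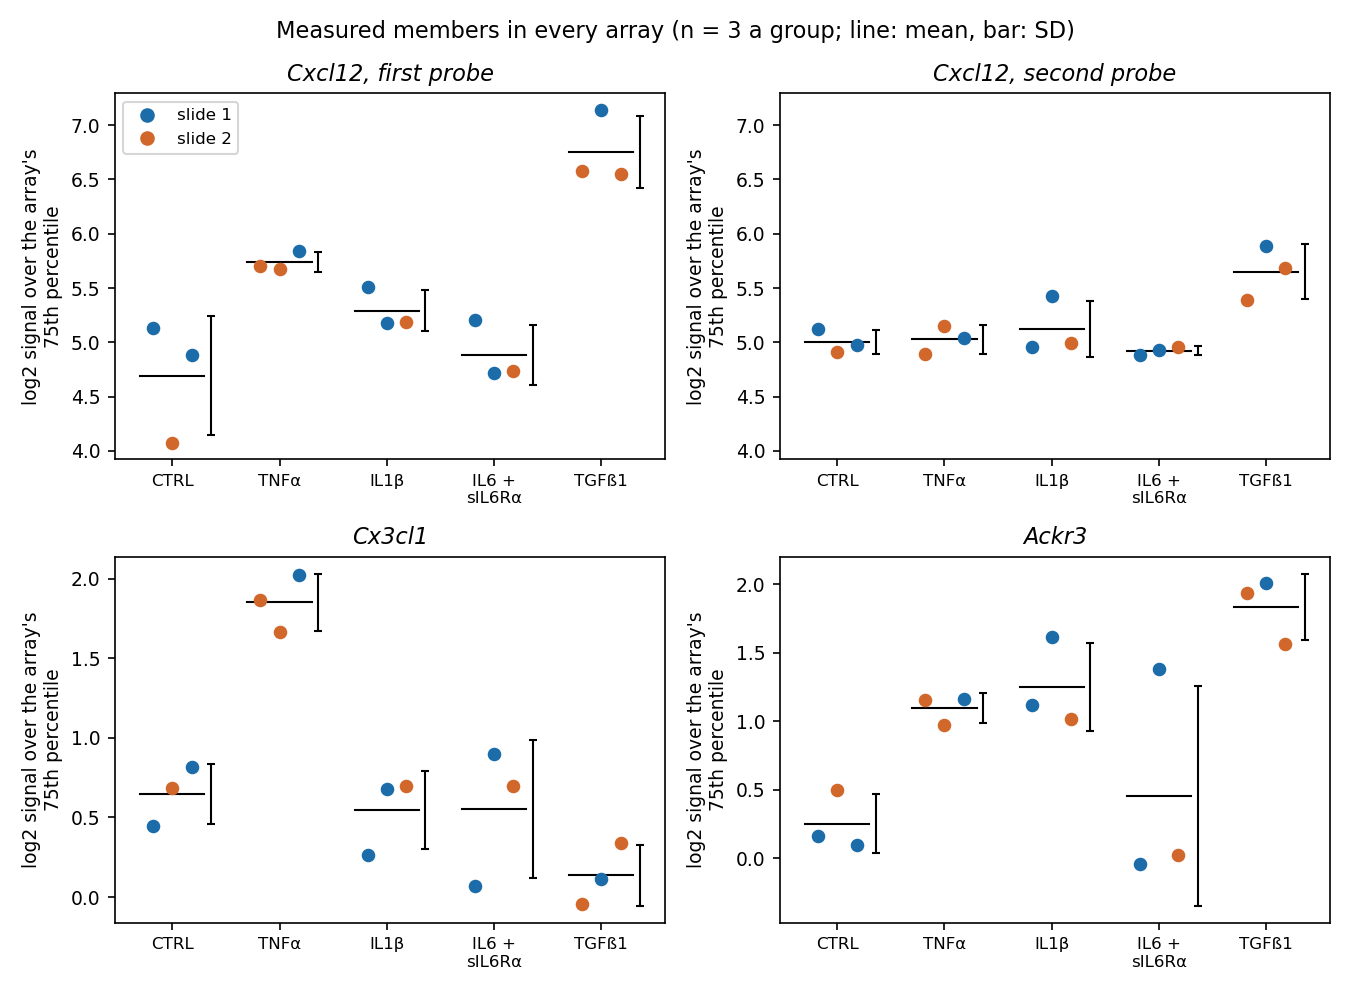
Level (log2 intensity over the 75th percentile of the array) of the 4 probes that passed the filter, by group, for each of the 15 arrays. Points are arrays coloured by slide, lines are means and bars are SD with n = 3. The TGFß1 arrays lie above CTRL on both *Cxcl12* probes and on *Ackr3*, and the TNFα arrays lie above CTRL on the first *Cxcl12* probe, *Cx3cl1* and *Ackr3*.

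*Cxcl12*, the ligand of CXCR4 and ACKR3, rose with both TGFß1 and TNFα on its first probe, and rose more with TGFß1. On this probe, annotated to the transcript NM_001012477, the CTRL arrays 1, 6 and 11 were at 5.13, 4.08 and 4.88, with a mean of 4.69 ± 0.55 (SD, n = 3). The TNFα arrays 4, 9 and 14 were at 5.70, 5.68 and 5.84 (5.74 ± 0.09), and the TGFß1 arrays 2, 7 and 12 at 6.58, 7.14 and 6.55 (6.76 ± 0.33). All TNFα arrays lay above all CTRL arrays, as 13.2% of all probes did, and all TGFß1 arrays lay above all TNFα and CTRL arrays, where 19.2% of all probes lay above CTRL. CTRL 6 was the lowest of the 15 arrays and gave CTRL the widest spread of the 5 groups.

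The first *Cxcl12* probe was 2.06 higher on the log2 scale with TGFß1 than in CTRL (SE 0.25, fold-change 4.17, q = 0.00014), and 1.04 higher with TNFα (SE 0.25, fold-change 2.06, q = 0.0163). With the slide as a block these differences were 2.20 (q = 1.5e-05) and 1.18 (q = 0.00145). Each slide alone leaves 1 array in an arm of any comparison with TNFα or TGFß1 (slide 1) or with CTRL, IL1β or IL6 and sIL6Rα (slide 2), so that values within a slide assume that this array varies like those of the other groups. Within slide 1 they were 2.13 (q = 0.0271) and 0.84 (q = 0.266), and within slide 2 they were 2.49 (q = 0.0123) and 1.61 (q = 0.0185). The TNFα call was lost without TNFα array 4 (q = 0.0518) or 14 (q = 0.0513), in a fit of only the groups compared (q = 0.0733), and for the mean of both probes (0.53, q = 0.0566). The level with TNFα was 1.02 below that with TGFß1 (SE 0.25, q = 0.0149), a call lost without TNFα array 9 (q = 0.0533) or TGFß1 array 7 (q = 0.0675).

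The IL1β arrays 5, 10 and 15 were at 5.51, 5.18 and 5.19 (5.29 ± 0.19) on the first *Cxcl12* probe, all above the 3 CTRL arrays, although 3.12% of all probes did not overlap in this direction and the difference of 0.60 was not called (95% confidence interval 0.05 to 1.14, q = 1). The arrays 3, 8 and 13 with IL6 and sIL6Rα were at 5.21, 4.71 and 4.74 (4.89 ± 0.28) and overlapped with CTRL. The order of means was CTRL, IL6 and sIL6Rα, IL1β, TNFα and TGFß1. In that order CTRL overlapped with IL6 and sIL6Rα (0.19, q = 1), and the latter with IL1β (0.40, q = 1). The IL1β arrays lay below all TNFα arrays, by 0.45 in the mean, which was not called (q = 0.368), and the step from TNFα to TGFß1 was called. The level was lower than with TGFß1 by 1.47 with IL1β (q = 0.00142) and by 1.87 with IL6 and sIL6Rα (q = 0.000262), and lower than with TNFα by 0.85 with IL6 and sIL6Rα (q = 0.0485). The last call was lost when any TNFα array or the IL6 and sIL6Rα array 8 or 13 was left out (q = 0.0973 to 0.173). The difference between IL1β and TNFα was called only when the slide and the run of an array (label numbers 1 to 5, 6 to 10 or 11 to 15, each with 1 array of every group) were both blocked (-0.59, q = 0.0266).

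The second *Cxcl12* probe, annotated to NM_021704, gave another picture for TNFα. The CTRL arrays were at 5.12, 4.91 and 4.98, the TNFα arrays at 4.89, 5.15 and 5.04, and the TGFß1 arrays at 5.39, 5.89 and 5.68. Only the TGFß1 arrays lay apart from CTRL, where 19.2% of all tested probes lay above it. The difference from CTRL was 0.65 with TGFß1 (SE 0.15, q = 0.00851) and 0.02 with TNFα (95% confidence interval -0.31 to 0.35, q = 0.94). The TGFß1 difference fell below a fold-change of 1.5 with quantile normalization (0.46) and without TGFß1 array 7 (0.53). The IL1β arrays were at 4.96, 5.42 and 4.99 and those with IL6 and sIL6Rα at 4.88, 4.93 and 4.96, both overlapping with CTRL.

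The 2 *Cxcl12* probes thus changed unequally within the same arrays. The first minus the second probe was -0.83 to 0.01 in CTRL, 0.52 to 0.81 with TNFα and 0.87 to 1.25 with TGFß1, with no overlap with CTRL in either case. The mean of this difference changed by 1.02 with TNFα and by 1.41 with TGFß1, with p = 0.1 in each 2-sided exact permutation test over arrays, which is the smallest p that 3 against 3 arrays allow. With IL1β it changed by 0.47 (exact p = 0.3) and with IL6 and sIL6Rα by 0.27 (exact p = 0.6). These are 4 tests of the same kind, and the smallest p of 0.1 is above 0.05 before any adjustment.

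*Cx3cl1*, which encodes the membrane chemokine fractalkine, was the only one of the 3 tested members that was highest with TNFα. The CTRL arrays 1, 6 and 11 were at 0.44, 0.69 and 0.82 (0.65 ± 0.19), and the TNFα arrays 4, 9 and 14 at 1.86, 1.66 and 2.02 (1.85 ± 0.18). The TNFα arrays lay above the other 12 arrays without overlap, where 13.2% of all tested probes lay above CTRL alone. The difference from CTRL was 1.20 (SE 0.21, fold-change 2.30, q = 0.00263), 1.39 within slide 1 (q = 0.207) and 1.08 within slide 2 (q = 0.0618), and it stayed called when any 1 array was left out (1.10 to 1.29).

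The TGFß1 arrays 2, 7 and 12 were at -0.05, 0.11 and 0.34 (0.14 ± 0.19) for *Cx3cl1*, all below the 3 CTRL arrays, as were 19.9% of all probes in this comparison. The difference of -0.51 was not called (95% confidence interval -0.97 to -0.06, q = 0.0951). The IL1β arrays 5, 10 and 15 were at 0.26, 0.68 and 0.70, and the arrays 3, 8 and 13 with IL6 and sIL6Rα at 0.07, 0.90 and 0.70, and both groups overlapped with CTRL. Their differences from CTRL were -0.10 for IL1β (95% confidence interval -0.56 to 0.35) and -0.10 for IL6 and sIL6Rα (-0.55 to 0.36), both with q = 1.

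In the order of means, TGFß1 was lowest, then IL1β, IL6 with sIL6Rα, CTRL and TNFα, and only the step from CTRL to TNFα exceeded the spread of the arrays. *Cx3cl1* was 1.71 higher with TNFα than with TGFß1 (SE 0.21, fold-change 3.28, q = 0.000118). With IL1β it was lower than with TNFα by 1.30 (q = 0.00325), and with IL6 and sIL6Rα also by 1.30 (q = 0.00166). Within slide 1 these differences were -1.55 (q = 0.214) and -1.54 (q = 0.153), and within slide 2 they were -1.06 (q = 0.154) and -1.07 (q = 0.0985). Without array 3, IL6 and sIL6Rα was 0.66 above TGFß1 (q = 0.028), which was not called with all arrays (0.42, q = 0.182). Against TGFß1, *Cxcl12* was thus called lower and *Cx3cl1* higher with TNFα, where 11.8% of all tested probes were called, 6.81% higher and 5.02% lower.

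**Figure D2:**
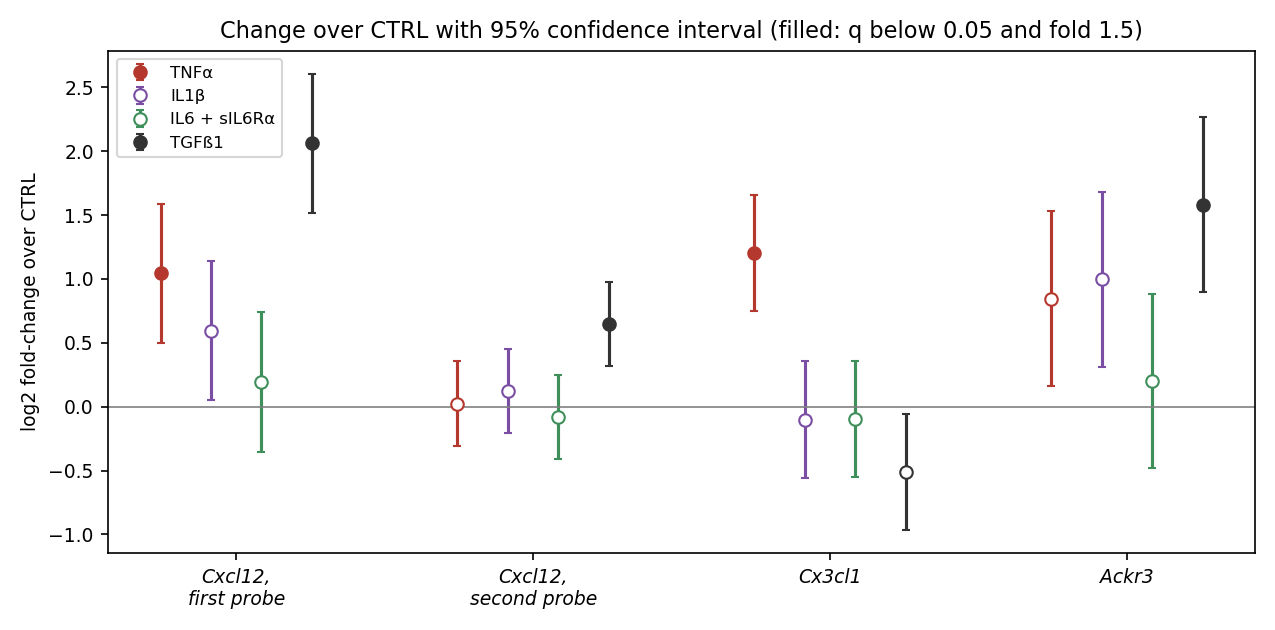
Log2 fold-change over CTRL of the 4 probes that passed the filter, for the 4 cytokines, with 95% confidence intervals from the fit of 15 arrays. Filled points were called (q under 0.05 and a fold-change of at least 1.5), which holds for TNFα and TGFß1 on the first *Cxcl12* probe, TGFß1 on the second, TNFα on *Cx3cl1* and TGFß1 on *Ackr3*.

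*Ackr3*, the atypical receptor that takes up CXCL12, was highest with TGFß1. The CTRL arrays 1, 6 and 11 were at 0.17, 0.50 and 0.10 (0.25 ± 0.22), and the TGFß1 arrays 2, 7 and 12 at 1.94, 2.01 and 1.56 (1.84 ± 0.24). The TGFß1 arrays lay above CTRL without overlap, as did 19.2% of all tested probes. The difference was 1.58 (SE 0.31, fold-change 2.99, q = 0.00338), it was 1.88 within slide 1 (q = 0.152) and 1.25 within slide 2 (q = 0.0264), and it stayed called without any 1 array (1.49 to 1.72).

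TNFα and IL1β arrays also lay above CTRL for *Ackr3*, and neither difference was called. The TNFα arrays 4, 9 and 14 were at 1.16, 0.97 and 1.16 (1.10 ± 0.11) and differed from CTRL by 0.84 (SE 0.31, 95% confidence interval 0.16 to 1.53, q = 0.104). The IL1β arrays 5, 10 and 15 were at 1.12, 1.62 and 1.02 (1.25 ± 0.32) and differed by 1.00 (SE 0.31, 95% confidence interval 0.31 to 1.68, q = 0.646). Groups without overlap in this direction made up 13.2% of all probes with TNFα and 3.12% with IL1β. The TNFα difference passed the threshold in a fit of only the groups compared (q = 0.0258) and when the run was blocked together with the slide (0.89, q = 0.0253).

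With IL6 and sIL6Rα the arrays disagreed for *Ackr3*: array 3 was at -0.04, array 13 at 0.02 and array 8 at 1.38. Array 8 lay above every CTRL array and the other two lay below every CTRL array. The difference from CTRL was 0.20 (q = 1) with all arrays and -0.26 without array 8. In the order of means, CTRL, IL6 with sIL6Rα, TNFα, IL1β and TGFß1, no neighbours differed beyond the spread of the arrays (0.20, 0.64, 0.15 and 0.59 between them, q of 1, 0.242, 0.836 and 0.204). *Ackr3* was lower than with TGFß1 by 1.38 with IL6 and sIL6Rα (q = 0.00805, and 0.0572 in a fit of only these groups) and by 0.74 with TNFα, which was not called (q = 0.149) except when only its own 2 groups were fitted (q = 0.0267) and with the run as a block (q = 0.0479).

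Without array 8, the IL6 and sIL6Rα group was 1.11 below TNFα (q = 0.00636) and 1.26 below IL1β (q = 0.0322) for *Ackr3*, against 0.64 (q = 0.242) and 0.79 (q = 0.805) with it. Over all 6 comparisons between cytokines, the number of the 3 tested genes called was 2 for TNFα against TGFß1, 1 for IL1β against TNFα (4.83% of all tested probes), 2 for IL6 and sIL6Rα against TNFα (8.68%), 1 for IL1β against TGFß1 (17%), 2 for IL6 and sIL6Rα against TGFß1 (16.4%) and 0 for IL1β against IL6 and sIL6Rα (0.419%). In the last comparison *Ackr3* alone was under 0.05 without adjustment in the limma fit.

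*Cxcl16*, *Cxcl14* and *Cxcl13* were near or below the limit of the arrays, and no fold-change is given for them. On the first probe of *Cxcl16*, the membrane chemokine that binds CXCR6, the CTRL arrays 1, 6 and 11 were at -6.65, -6.93 and -7.08, the TNFα arrays 4, 9 and 14 at -5.37, -6.04 and -4.90, and the IL1β arrays 5, 10 and 15 at -5.64, -6.28 and -5.28. The TNFα and IL1β arrays lay above all CTRL arrays, but TNFα 14 and IL1β 15 were the only arrays of the 15 on which the probe was well above background. Of the tested probes, 13.2% lay above CTRL in this way with TNFα and 3.12% with IL1β. This share was not counted for probes under the filter. The arrays with IL6 and sIL6Rα were at -7.43 to -7.26 and those with TGFß1 at -7.58 to -6.69. In a fit of all 56605 probes without the filter, TNFα against CTRL was called (q = 0.0247, and q = 0.0273 with the slide as a block) and IL1β was not (q = 0.639).

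That call for *Cxcl16* was lost when CTRL array 6 (q = 0.0755), CTRL array 11 (q = 0.0852), TNFα array 4 (q = 0.0968) or TNFα array 14 (q = 0.093) was left out. The second *Cxcl16* probe, on the same transcript NM_023158, was well above background on none of the 15 arrays. It was at -5.44 to -5.85 on the TNFα arrays and at -6.68 to -8.03 on the CTRL arrays, again without overlap, as were 13.2% of the tested probes. It was not called without the filter (q = 0.0626).

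*Cxcl14*, a chemokine of epithelia and stroma, had a second probe on NM_019568 that was well above background on only 2 arrays, TNFα 9 at -3.29 and IL1β 10 at -2.54, while the other 13 arrays were at -7.90 to -7.02. The other arrays of the same treatments stayed in that low range. The 2 arrays lay on different slides, and their label numbers follow each other. Its first probe, on XM_006517307, was at -6.66 on TNFα 9 and at -6.72 on IL1β 10 and was well above background only on CTRL 1, at -5.20. *Cxcl13*, the B cell chemokine, was at -7.85 to -6.86 and well above background on none of the 15 arrays.

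**Figure D3:**
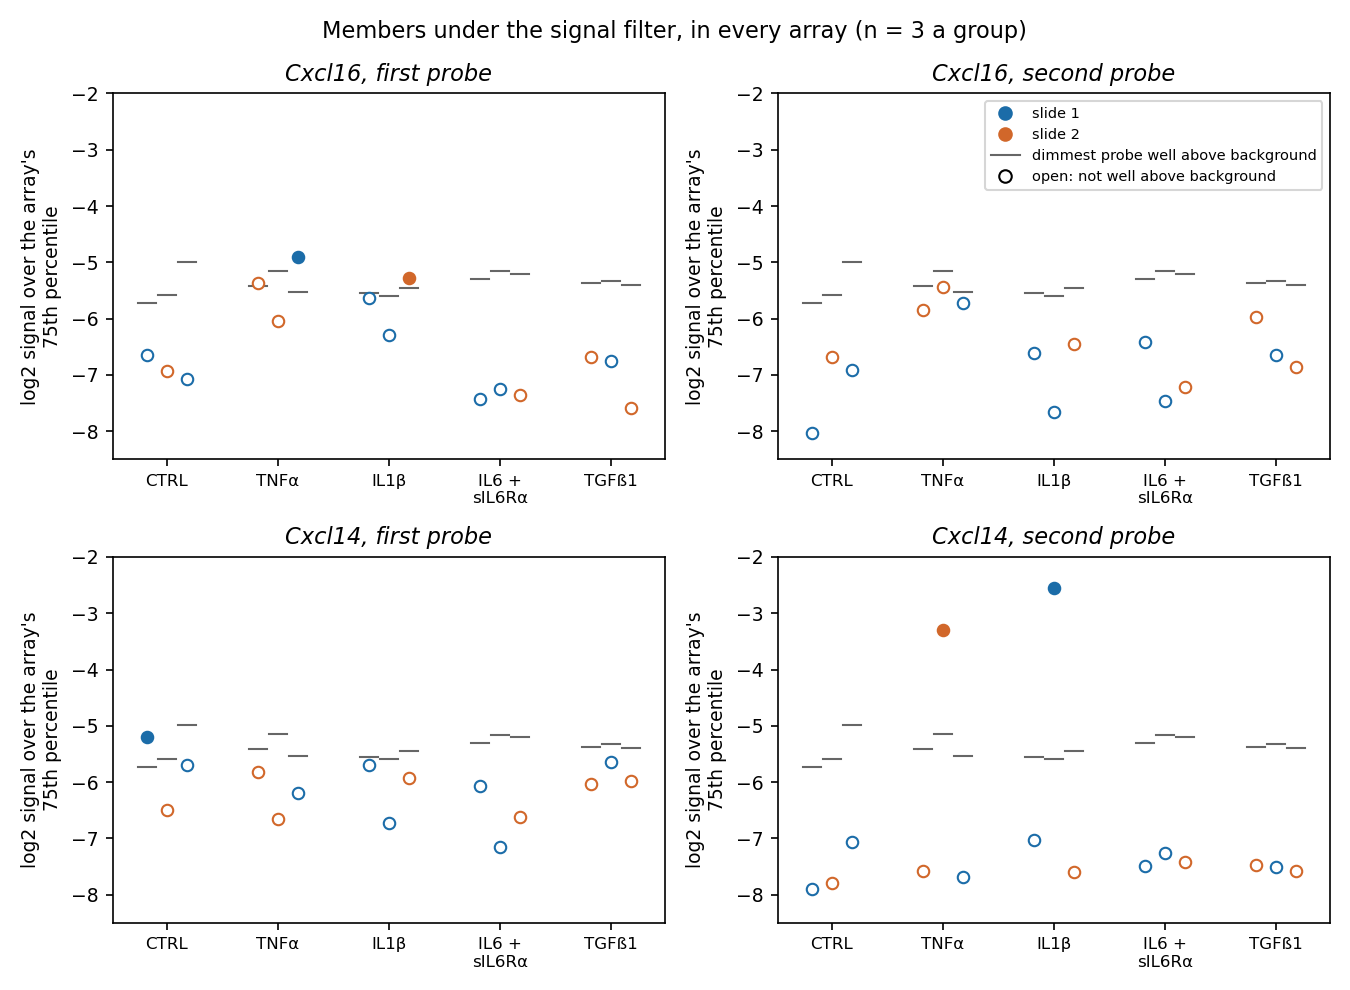
Level (log2 intensity over the 75th percentile of the array) of the *Cxcl16* and *Cxcl14* probes on each array, by group and coloured by slide. Grey bars mark the dimmest probe well above background on that array and open points were not well above background. Most *Cxcl16* points are open, the TNFα arrays lie above CTRL on both *Cxcl16* probes, and the second *Cxcl14* probe stood apart on TNFα 9 and IL1β 10 alone.

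Of 29 partner genes (receptors, other atypical receptors, proteases, arrestins and other ligands), 28 had a probe and 17 were tested. With TNFα 1 was called higher and 2 lower, with TGFß1 2 were higher and 2 lower, and with IL1β and with IL6 and sIL6Rα none was called. Across all tested probes 10.2% were called with TNFα and 18% with TGFß1. The median log2 difference of the 17 genes was 0.15 with TNFα and 0.18 with TGFß1. *Cxcl11*, another ACKR3 ligand, had no named probe.

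Among the receptors, *Cxcr6*, the receptor of CXCL16, rose by 2.61 with TGFß1 (SE 0.26, q = 3.18e-05), from -3.66, -3.35 and -2.87 in CTRL to -1.02, -0.62 and -0.42. With TNFα it was 0.83 higher with no overlap, as were 13.2% of all tested probes. The difference was not called (q = 0.0549) unless the slide was a block (q = 0.036). *Cxcr5*, the receptor of CXCL13, was well above background on the 3 TGFß1 arrays (-4.32, -3.94 and -3.80) and on none of the other 12. It thus passed the filter only through these arrays, a selection on the signal that is then tested against CTRL (q = 1.83e-06). Without the filter its q was 7.37e-06. *Cxcr5* was at least 2.67-fold higher with TGFß1 than in CTRL. This bound sets the mean of the bright arrays against the dimmest signal well above background on each dim array, on the scale of the processed signal. With normexp background correction the log2 difference was 0.78 (q = 0.000619). *Cxcr4* and *Cx3cr1*, the classical receptors of CXCL12 and CX3CL1, were well above background on none of the 15 arrays.

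Of the other atypical receptors, *Ccrl2*, which binds chemerin, was at -1.76, -1.55 and -0.93 with TNFα against -5.96, -5.08 and -4.78 in CTRL, a difference of 3.86 (SE 0.53, q = 0.000495), in which only 1 of the 3 CTRL arrays was well above background. With normexp background correction the difference was 1.97 (q = 6.4e-05). *Ccrl2* passed the filter only through the TNFα and IL1β arrays, and without the filter its q for TNFα against CTRL was 0.00128. It was at least 15.5-fold higher with TNFα than with TGFß1, where no array was well above background. *Ackr1* and *Ackr2* were each well above background on 1 array and *Ackr4* and *Gpr182* on none. *Adm*, whose peptide adrenomedullin ACKR3 also takes up, fell by 3.11 with TGFß1 (SE 0.44, q = 0.000384), from 2.43, 2.99 and 3.00 to -0.90, -0.80 and 0.80, while with TNFα it was at 2.55 to 3.59 and overlapped with CTRL. *Ccl27a*, another homeostatic chemokine, was at least 1.54-fold lower than in CTRL with TNFα (q = 0.0346) and with TGFß1 (q = 0.00134). It passed the filter only through the CTRL arrays and those with IL6 and sIL6Rα, a selection on the CTRL signal that is then tested. Without the filter q was 0.0763 with TNFα, not called, and 0.00338 with TGFß1. The call was lost for both with normexp background correction (q = 0.257 and 0.158). That for TNFα was also lost in a fit of only the groups compared (q = 0.0641). The same held when CTRL array 6 or 11 or any TNFα array was left out (q = 0.0515 to 0.116). With the slide as a block the calls of *Cxcr6*, *Cxcr5*, *Ccrl2*, *Adm* and *Ccl27a* were kept. Within slide 1, *Adm* differed by -1.91 with TGFß1 (q = 0.131) and *Ccrl2* by 3.97 with TNFα (q = 0.0907), and within slide 2 *Ccrl2* differed by 3.44 (q = 0.0519).

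The proteases that shed CX3CL1 and CXCL16 moved little. *Adam10* differed from CTRL by -0.39 with TNFα (q = 0.0282, under a fold-change of 1.5) and *Adam17* by 0.18 (q = 0.422). With TGFß1 they differed by -0.06 (q = 0.706) and -0.14 (q = 0.465). *Rhbdf1*, which encodes the ADAM17 regulator iRhom1, was called lower by 0.60 with TNFα (q = 0.0415), and was not called with the slide as a block (-0.51, under a fold-change of 1.5). Its call was also lost without CTRL array 1 (q = 0.0886), CTRL array 11 (q = 0.133), TNFα array 4 (-0.42, q = 0.181) or TNFα array 9 (q = 0.0936). The call was lost as well without the filter (q = 0.102) and in a fit of only the groups compared (q = 0.143). With the run and the slide blocked the difference was -0.50, under a fold-change of 1.5.

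**Figure D4:**
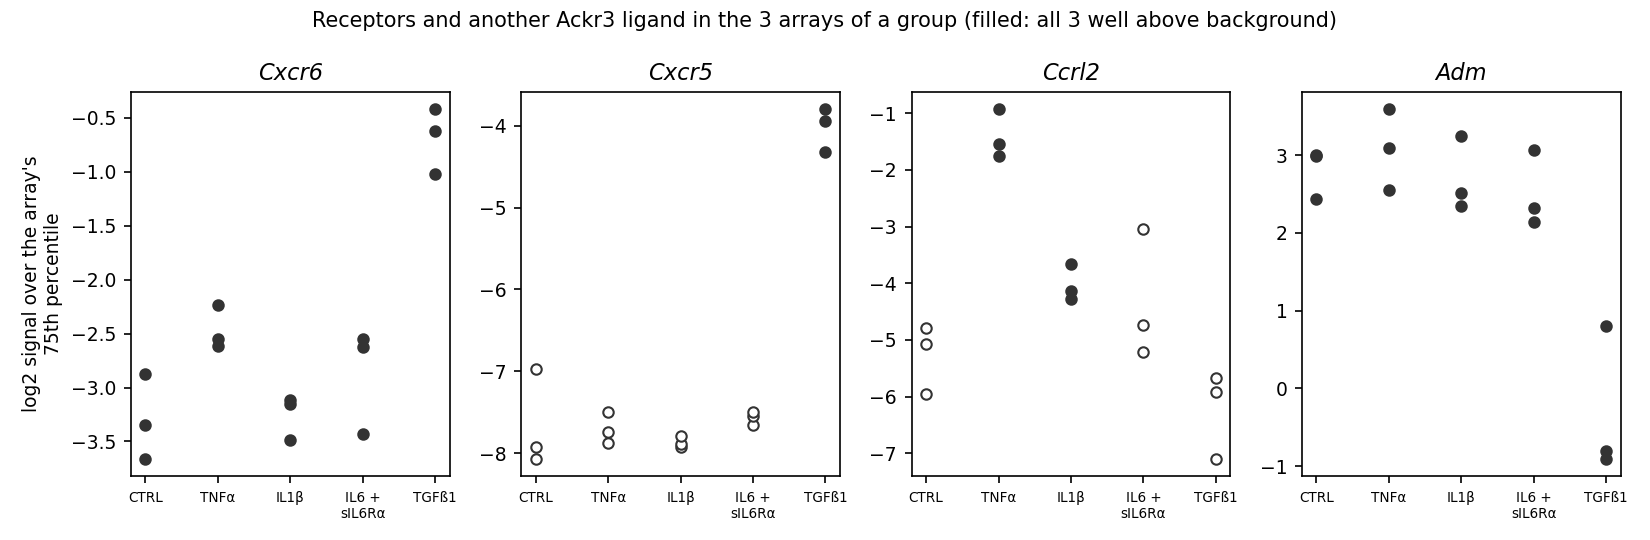
Level (log2 intensity over the 75th percentile of the array) of *Cxcr6*, *Cxcr5*, *Ccrl2* and *Adm* on the 3 arrays of each group, each panel with its own axis. Filled points mark groups in which all 3 arrays were well above background. *Cxcr6* and *Cxcr5* were highest with TGFß1, *Ccrl2* was highest with TNFα, and *Adm* was lowest with TGFß1.

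Likeness to a member was measured by Pearson's r of the log2 level over the 15 arrays, among 2741 candidate genes. It is a description, since the arrays share 5 treatments and 2 slides. The genes most like *Cxcl12* on its first probe were *Six4* (r = 0.961), *Gm24463* (r = 0.959) and *Ankrd13b* (r = 0.959), whose means were also highest with TGFß1 and next with TNFα. Those most like *Cx3cl1* were *Ccl9* (r = 0.942), *D17H6S56E-5* (r = 0.942) and *Il2rg* (r = 0.94), and *Ccl9*, a chemokine, was at 3.74 with TNFα, 0.91 in CTRL and -1.16 with TGFß1. *Ackr3* had weaker companions, *Gadd45a* (r = 0.819), *Col18a1* (r = 0.808) and *Abtb2* (r = 0.803), each with its highest mean with TGFß1.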

How the data were processed

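Total RNA was labelled with Cyanine 3 and hybridised to 1-color Agilent whole mouse arrays with 62976 spots, 59305 of them not controls. The authors deposited the scanner intensity files made by Agilent Feature Extraction 10.7.3.1, as given in the submitters' processing notes, whose processed signal is background-subtracted and not normalized between arrays. The deposited value table is the same intensity (largest difference 0). The scanner header annotates the array on mm9. Quality marks (other values, 0 or 1) per the file headers served as filters.

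The processed signal was expressed as log2 minus the array's 75th percentile. Deposited files hold intensities, so log2 values were computed here and not by the authors. Spots of a probe were averaged, and a gene with several probes is given by its brightest over 15 arrays. For *Cxcl12* this was the first probe, which was not the brighter in CTRL (4.69 against 5.00). The treated arrays thus decided that choice, so it was not independent of the changes tested. limma 3.58.1 (R 4.3.3) was fitted to all 15 arrays without covariates, 2-sided, and adjusted by Benjamini-Hochberg over 29334 probes. The study describes the CTRL, TNFα and TGFß1 arrays as independent experiments, and nothing states this for the IL1β and IL6 arrays, whose q-values may then measure a technical spread. The small number of arrays a group limits the precision. The code was tested on simulated data. Symbols came from 33767 probes matched to RefSeq.

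The text names the 6 members whatever their values, fixed lists of partners, label checks and markers, and for each tested member the 3 genes with the highest r. The members and lists were chosen with earlier results of these data known. Alternatives were the slide as a block, each slide alone, the run of label numbers as a block, normexp (offset 50, on the median signal, since the mean signal was not analysed here), quantile normalization, no filter, only the groups compared, the mean over probes, a fold-change of 2, and leaving out each array. The fit without the filter together with the slide was added after seeing the data.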

Additional observations from a re-analysis of the deposited data

How the results depend on the processing

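With the slide as a fixed block every count of called members was the same. In that fit 11.9% of all tested probes were called for TNFα against CTRL and 20.1% for TGFß1 (10.2% and 18% without the block). For IL1β it was 0.358% and for IL6 and sIL6Rα 0.126% (0.252% and 0.0648% without the block). The share of all probes called was not counted in the other fits. A changed count of members there cannot be told from a changed share of all probes. Counts of called members changed as follows, out of 3, or out of 6 without the filter. On slide 1 alone they were 0 for TNFα against CTRL, 1 for TGFß1 against CTRL, 0 for TNFα against TGFß1, 0 for IL1β against TNFα, 0 for IL6 and sIL6Rα against TNFα and 1 for IL6 and sIL6Rα against TGFß1. On slide 2 alone they were 1 for TNFα against CTRL, 0 for IL1β against TNFα and 1 for IL6 and sIL6Rα against TNFα. In these fits an arm, or both, held 1 array, whose spread was taken from the other groups, so that a lost call says little. With the run of label numbers as replicate block and the slide, 2 were called for IL1β against TNFα, and 3 for TNFα against CTRL and for TNFα against TGFß1, *Ackr3* being added in both. Without the filter all 6 members were tested. In that fit, and also with the slide added, 2 of the 6 were called for IL1β against TGFß1. For TNFα against CTRL and against TGFß1 3 of the 6 were called, the added gene being *Cxcl16* in each case. For IL6 and sIL6Rα against TNFα the fit without the filter left 2, since *Cxcl16* was added and *Cxcl12* lost (q = 0.111). With the slide added there were 3. In a fit of only the groups compared 1 was called for IL6 and sIL6Rα against TGFß1 and 3 for TNFα against TGFß1, and for TNFα against CTRL *Ackr3* took the place of *Cxcl12*. With the mean over probes 1 was called for TNFα against CTRL and 1 for IL6 and sIL6Rα against TNFα, and with a fold-change of at least 2, 1 for the latter. Leaving out single arrays gave 1 to 2 for TNFα against CTRL, for TNFα against TGFß1 and for IL6 and sIL6Rα against TNFα, 2 to 3 for IL6 and sIL6Rα against TGFß1 (3 without array 3), and 0 to 1 for IL1β against IL6 and sIL6Rα. The cause was not tested.

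Signs turned only for differences that were not called. On the second *Cxcl12* probe, TNFα against CTRL was -0.012 on slide 1 and -0.053 with quantile normalization, and -0.039 to 0.092 when single arrays were left out. IL6 and sIL6Rα against CTRL was 0.052 on slide 2. IL1β against TNFα was -0.031 on slide 2 and -0.053 to 0.18 without single arrays, and IL1β against CTRL was -0.028 to 0.21. For *Cxcl12* on its first probe, IL6 and sIL6Rα against CTRL was -0.044 on slide 1 and -0.12 to 0.41 without single arrays. For *Cx3cl1*, IL1β against CTRL was 0.013 on slide 2 and -0.20 to 0.041 without single arrays, IL6 and sIL6Rα against CTRL was 0.0082 and -0.27 to 0.15, and IL1β against IL6 and sIL6Rα was 0.0043 on slide 2, 0.0072 with quantile normalization and -0.25 to 0.17 without single arrays. For *Ackr3*, IL6 and sIL6Rα against CTRL was -0.48 on slide 2 and -0.26 to 0.45 without single arrays, and IL1β against TNFα was -0.050 and -0.032 to 0.27.

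The label numbers form 3 runs of 5 with 1 array of every group. With slide and group removed, the 30 pairs of the same run had r of 0.11 to 0.67 over probes, and 2 of 60 pairs of different runs were over 0.1. The labels do not say what a run is.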
